A study of Homo sapiens with 6 samples.

Results

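ERN1 encodes IRE1, a sensor of protein misfolding in the endoplasmic reticulum (ER), and XBP1 encodes the transcription factor whose mRNA IRE1 cuts. The 2 genes were chosen by symbol and are described here across 6 arrays, with 1 probe set each, out of 14884 named genes tested. The cells were MM.1S, an established human cell line of multiple myeloma, a cancer of antibody-secreting plasma cells. Each culture had first received a pulse of Cfz, the usual abbreviation of the proteasome inhibitor carfilzomib, for 1 h. On 3 arrays (ATRA) the cells were then cultured for 12 h with 10 µM ATRA (all-trans retinoic acid), a vitamin A product that binds nuclear receptors of the RAR family. On the 3 control arrays (DMSO) they were cultured for the same time with the solvent DMSO. The Cfz pulse is thus common to both groups, and cells without it were not analysed here, so the values show what ATRA added to cells already exposed to Cfz. The comparison covers 1 cell line at 1 dose and 1 time, and the labels leave unsaid whether replicate arrays stem from independent cultures. The p-values therefore measure only the spread between these samples, which may be technical.

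IRE1 spans the ER membrane. When unfolded proteins gather in the ER lumen, IRE1 molecules pair, phosphorylate each other and switch on an RNase that removes a short intron from XBP1 mRNA in the cytoplasm. The RNA ligase RTCB joins the ends, and the spliced mRNA encodes the active factor XBP1s, which raises genes of ER protein import, folding, glycosylation, degradation and vesicle transport. Plasma cells depend on this branch to secrete antibodies, and proteasome inhibitors burden it because misfolded proteins sent out of the ER are no longer degraded. The deposited table holds 1 value per gene, so spliced and unspliced XBP1 mRNA were not told apart, and IRE1 protein and its RNase activity were not measured.

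On assembly GRCh38.p14, ERN1 lies on the minus strand of chromosome 17 (chr17:64039142-64130144) and XBP1 on the minus strand of chromosome 22 (chr22:28794560-28800569). Their promoters are shown because both genes rose and because that of XBP1 carries the ER stress response element (ERSE), the sequence through which ER stress factors and the CCAAT-binding factor NF-Y act on chaperone genes. Each stretch holds 250 bases before and 50 after the gene start, is read from RefSeq, and is written 5′ to 3′ on the gene's strand. In XBP1 (chr22:28800520-28800819) the capitals mark both ends of the ERSE, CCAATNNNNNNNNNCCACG. In ERN1 (chr17:64130095-64130394) they mark GC boxes, the letters GGGCGG read on the opposite strand.
ERN1: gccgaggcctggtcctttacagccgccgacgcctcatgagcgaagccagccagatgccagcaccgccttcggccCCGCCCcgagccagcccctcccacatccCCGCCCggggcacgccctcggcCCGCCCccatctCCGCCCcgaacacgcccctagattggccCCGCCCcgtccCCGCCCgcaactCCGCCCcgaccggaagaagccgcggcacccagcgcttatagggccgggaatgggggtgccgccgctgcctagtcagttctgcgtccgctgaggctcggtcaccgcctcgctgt
XBP1: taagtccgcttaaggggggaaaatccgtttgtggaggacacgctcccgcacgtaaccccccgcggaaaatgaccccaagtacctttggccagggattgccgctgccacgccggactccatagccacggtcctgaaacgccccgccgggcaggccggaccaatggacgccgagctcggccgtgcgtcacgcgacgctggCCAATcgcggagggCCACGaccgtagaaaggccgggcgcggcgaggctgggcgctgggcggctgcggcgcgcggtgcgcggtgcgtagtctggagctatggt

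Both strands were searched. The ERSE was present once in this XBP1 promoter, starting 52 bases before the gene start, and it was absent from the ERN1 promoter and from the stretch at the other annotated XBP1 start. Of 35116 promoters of the same length, 0.0769% held it. The ERN1 promoter held 7 GC boxes and the XBP1 promoter 1, and 45% of all promoters held at least 1. The CCAAT box (CCAAT, which also forms the first letters of the ERSE) was found 1 time in ERN1 and 2 times in XBP1, and in 34.6% of all promoters. Neither promoter held ERSE-II (ATTGGNCCACG, in 0.0541% of promoters), the core of the XBP1s-binding element (TGACGTGG, in 0.729%) or the retinoid receptor half-site AGGTCA (in 13.8%). A match describes these letters only, and sites outside the window were not searched.

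ERN1 was at an intensity of 1073, 1073 and 1065 on the 3 ATRA arrays, against 519, 539.6 and 547 on the 3 DMSO arrays. All ATRA values lay well above all DMSO values, and the ATRA arrays were almost identical to one another. The means were 1070.2 ± 4.41 with ATRA and 535 ± 14.4 with DMSO (SD, n = 3 arrays each), a rise of 2.00-fold with a 95% confidence interval of 1.75 to 2.29. On the log2 scale the change was 1.00 (SE 0.083), and the adjusted p was 0.00159 (limma, two-sided, Benjamini-Hochberg adjustment over all 14884 genes). Both groups were far above the median intensity of all probe sets, which lay between 9.40 and 9.76 per array. In bulk RNA, more cells with a transcript and more of it per cell cannot be told apart.

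XBP1 was at an intensity of 1689.6, 1729.8 and 1774 on the ATRA arrays, against 1199, 1223 and 1146 on the DMSO arrays. The groups did not overlap, and the lowest ATRA array was above the highest DMSO array. The means were 1731 ± 42.3 with ATRA and 1189 ± 39.7 with DMSO (SD, n = 3 arrays each), a rise of 1.46-fold with a 95% confidence interval of 1.27 to 1.67. The log2 change was 0.54 (SE 0.085, adjusted p = 0.0175 in the same limma fit). Both genes thus passed in the upward direction, as did 1.73% of all genes tested. RefSeq lists a pseudogene of XBP1, XBP1P1, on chromosome 5, and how far its transcripts could bind the XBP1 probes was not tested.

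**Figure D1:**
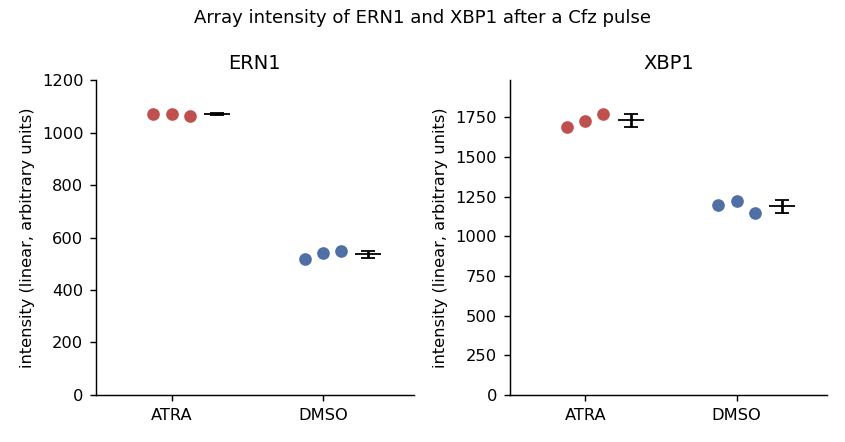
Intensity on a linear scale for ERN1 (left panel) and XBP1 (right panel), 1 point per array, with the mean and SD over 3 arrays beside each group. The ATRA points of ERN1 lie near 1070.2 and those of XBP1 near 1731, above every DMSO point of the same gene.

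The rise of ERN1 was larger than that of XBP1 by 0.46 on the log2 scale. Within each array, log2 ERN1 minus log2 XBP1 was -0.66, -0.69 and -0.74 with ATRA, against -1.21, -1.18 and -1.07 with DMSO. The 2 genes have different probes, so the level of this difference carries no meaning. Its shift between groups does not depend on how arrays were scaled by a constant. Whether the 2 probe sets report a fold to the same degree was not tested. The ATRA arrays were all higher than the DMSO arrays, with means of -0.69 ± 0.041 and -1.15 ± 0.075 (SD, n = 3 each). An exact two-sided permutation test over the arrays gave p = 0.1, the smallest value that this test can give with 3 against 3 arrays.

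The calls of the 2 genes differed in how firmly they stood. ERN1 kept an adjusted p between 0.0106 and 0.0142 whichever array was left out. XBP1 no longer passed in any of these 6 leave-one-out fits, with an adjusted p from 0.0584 to 0.0758, while its log2 change stayed between 0.52 and 0.56. With a variance trend and robust estimation (eBayes with trend and robust), the adjusted p was 3.33e-08 for ERN1 and 2.45e-06 for XBP1.

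**Figure D2:**
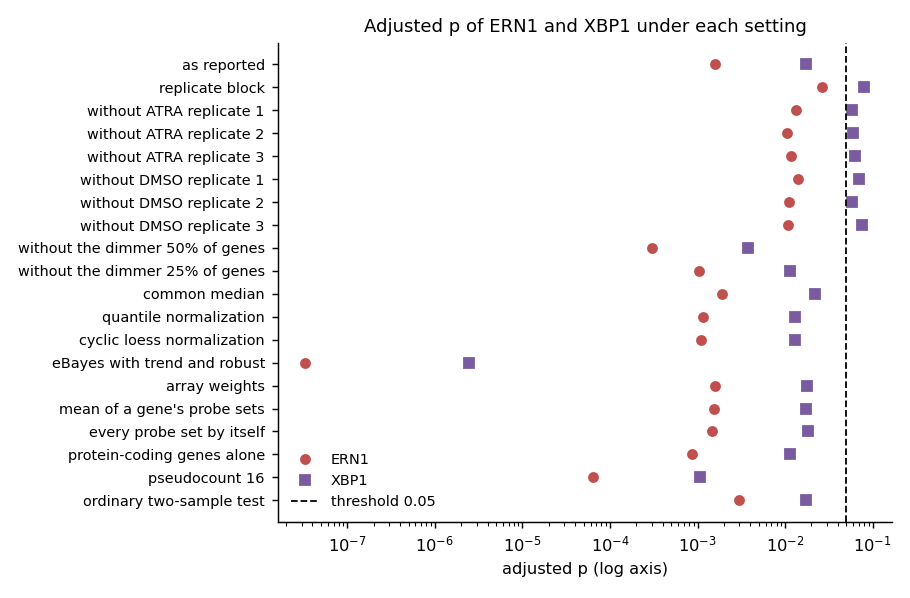
Adjusted p on a log axis for ERN1 (circles) and XBP1 (squares) in the reported fit (top) and under each alternative, with a dashed line at 0.05. XBP1 lies right of the line without any 1 of the 6 arrays (up to 0.0758) and with the replicate block (0.0808), and ERN1 lies left of it in all rows.

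Of the genes that act with IRE1 in the ER membrane or below it, the kinase gene MAP3K5 rose. MAP3K5, or ASK1, is the kinase that IRE1 and TRAF2 engage on the way to JNK. It was at 85.1, 80.2 and 85.0 with ATRA, against 42.5, 34.3 and 37.3 with DMSO, so the groups were widely apart. The change was 1.14 on the log2 scale (SE 0.11, adjusted p = 0.00243, limma), or 2.20-fold, and it passed in all 6 leave-one-out fits. It was the 1 of 13 measured partners and regulators, of 23 listed, that rose, and 0 fell, against 1.73% of all genes that rose and 2.07% that fell. The median of the list was -0.02, against -0.01 over all genes, and it ran from -0.58 to 1.14.

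The other partners did not pass. RTCB, the ligase that joins XBP1 mRNA, was at 525 ± 48.6 with ATRA and 670.0 ± 9.41 with DMSO (SD, n = 3), a log2 difference of -0.36 (adjusted p = 0.115). The groups did not overlap, since the highest ATRA array was at 553 and the lowest DMSO array at 663.5. BAX and BAK1, effectors of mitochondrial apoptosis that also bind IRE1, lay on opposite sides. BAX was at 79.7 ± 7.43 with ATRA and 119.6 ± 15.9 with DMSO (log2 difference -0.58, adjusted p = 0.0600), and BAK1 at 561 ± 35.4 with ATRA and 408 ± 33.2 with DMSO (0.46, adjusted p = 0.0599). SEL1L, the partner of the ubiquitin ligase that turns IRE1 over, was at 1121 ± 12.7 with ATRA and 1173 ± 28.6 with DMSO (-0.07, adjusted p = 0.745). With eBayes with trend and robust, 3 of the 13 rose, among them BAK1 (adjusted p = 0.00115), and 2 fell, RTCB (adjusted p = 0.00415) and BAX (adjusted p = 0.00944). In that fit 1327 of all 14884 genes passed in either direction. ERN2, the IRE1 paralog of gut and airway epithelium, was dim, at a log2 level of 3.73 with ATRA and 3.67 with DMSO. BiP (HSPA5), DNAJB9, PDIA6, SYVN1 and TRAF2 were not analysed here.

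Of the genes known as targets of XBP1s, those measured moved little. The targets were set out in 4 lists by role, with 98 symbols in all, of which 57 were measured. The other 41 symbols, not analysed here, include DNAJB9, DNAJC3, HSP90B1, EDEM1, HERPUD1 and SYVN1, so the counts do not cover these targets. VIMP, which is not among the 57, is an older symbol of SELENOS, which is. Of the 57, 1 passed, ERLEC1, a lectin that escorts misfolded glycoproteins to degradation. That is 1.75% of the measured targets, against 1.73% of all genes that rose. None fell in limma's test (0 of 57), 9 had an unadjusted p under 0.05 in either direction, and 0 passed the ordinary two-sample test. The median log2 difference was 0.03, against -0.01 over all genes, and 50 of the 57 lay within 0.25 of 0. Groups did not overlap upward for 16 of the 57 (28.1%, against 9.86% of all genes) and downward for 6 (10.5%, against 14.8%). These shares are not of genes at like intensity. With DMSO, 5 of the 57 had a log2 level under 5, while the median level over all genes was 4.19. With eBayes with trend and robust, 5 of the 57 rose and 0 fell, while 1327 of all 14884 genes passed in either direction in that fit. The share of all genes with an unadjusted p under 0.05 is not given here.

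ERLEC1 was at 514, 527 and 561 with ATRA, against 367, 413 and 379.7 with DMSO. The groups did not overlap, and the log2 change was 0.47 (SE 0.094, adjusted p = 0.0424, limma). Its call ended in each of the 6 leave-one-out fits (adjusted p between 0.0832 and 0.137). In its list of ER-associated degradation, 1 of 10 measured genes rose and 0 fell, against 1.73% and 2.07% of all genes, and the median was -0.06. UFD1, a cofactor of the ATPase p97 that pulls proteins out of the ER, differed by -0.18 (adjusted p = 0.358), and DERL3, a channel protein of this pathway, by -0.17 (adjusted p = 0.389).

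The lists of folding, of translocation and glycosylation and of vesicle transport held 10, 25 and 12 measured genes, with 0 past the threshold in limma in each. Their median log2 differences were 0.09, 0.02 and 0.08. In the folding list, 3 genes had an unadjusted p under 0.05, and in each of the 3 lists 0 passed the ordinary two-sample test. For such unadjusted counts in these 3 lists, the share over all genes is not given here. SELENOS, an ER selenoprotein of the degradation machinery, was at 34.2 ± 4.41 with ATRA and 27.3 ± 2.05 with DMSO (0.32, adjusted p = 0.225; 0.21 with a pseudocount of 16). MZB1, a chaperone of antibody assembly in plasma cells, was at 2159 ± 166 with ATRA and 1818 ± 74.3 with DMSO (0.25, adjusted p = 0.242). In translocation and glycosylation, where 2 genes had an unadjusted p under 0.05, the largest differences were those of KDELR3 (0.43, adjusted p = 0.191), a receptor that returns ER proteins, and OSTC (0.34, adjusted p = 0.389), a subunit of the oligosaccharyltransferase, which differed by 0.13 without DMSO replicate 3. KDELR3 was near the array medians, at 12.9 ± 1.13 with ATRA and 9.65 ± 1.73 with DMSO, and differed by 0.17 with a pseudocount of 16. In vesicle transport, with 3 genes under an unadjusted p of 0.05, SEC16A, the scaffold of ER exit sites, differed by -0.32 (adjusted p = 0.157) and PREB, which loads the coat GTPase SAR1, by 0.31 (adjusted p = 0.150).

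**Figure D3:**
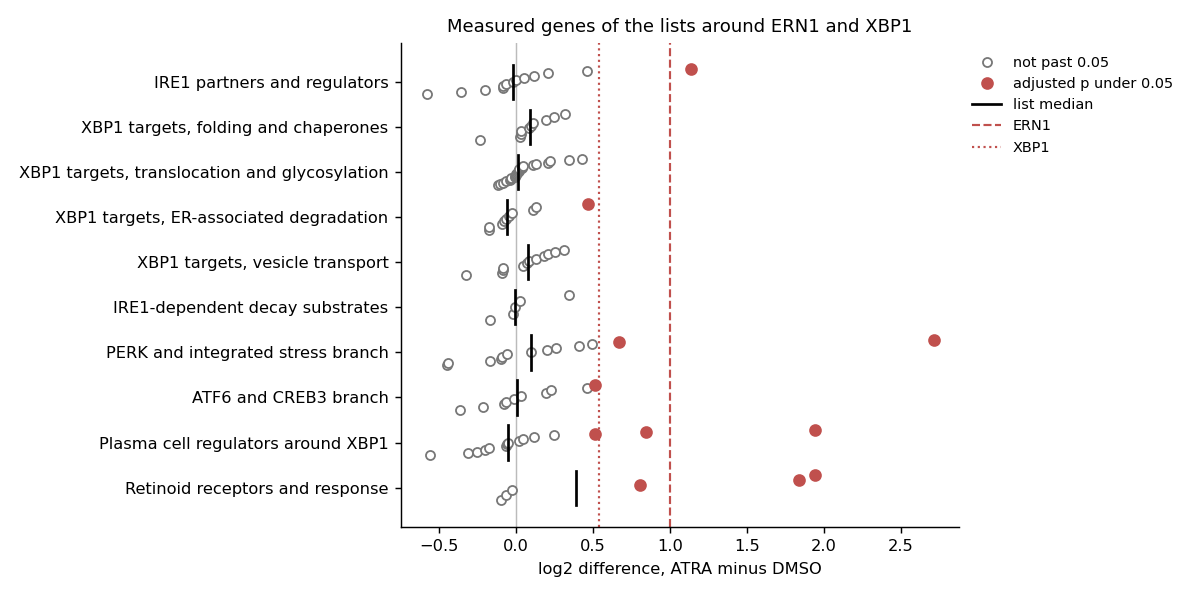
Log2 difference, ATRA minus DMSO, of each measured gene in 10 lists (1 row per list), filled where the adjusted p was under 0.05, with the list median as a black bar and vertical lines at ERN1 (1.00) and XBP1 (0.54). Among the 4 lists of XBP1 targets 1 of 57 genes is filled, and every open point of these lists lies left of the XBP1 line.

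The ERSE of XBP1 was set beside those of other measured genes, a comparison chosen after the values were known. Of 25 gene symbols with an ERSE in a promoter, 11 were measured, and 1 of these, XBP1, passed, against 3.8% of all genes in either direction. The other 10 ranged from -0.31 to 0.43 on the log2 scale with a median of 0.08. The elements of XBP1 and of the 5 measured genes in the lists are shown so that the fixed ends, in capitals, and the spacer can be compared.
XBP1: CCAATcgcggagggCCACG
CALR: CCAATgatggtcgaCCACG
CANX: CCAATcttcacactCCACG
CRELD2: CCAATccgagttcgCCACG
ERO1B: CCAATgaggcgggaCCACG
SERP1: CCAATtcgctgtctCCACG

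Each is read 5′ to 3′ on the strand that matches, at chr22:28800603-28800621 for XBP1, chr19:12938384-12938402 for CALR, chr5:179698778-179698796 for CANX, chr22:49918554-49918572 for CRELD2, chr1:236282183-236282201 for ERO1B and chr3:150546710-150546728 for SERP1. CALR and CANX encode the lectin chaperones calreticulin and calnexin. CALR was at 5169 ± 94.0 with ATRA and 5060.4 ± 190 with DMSO (0.03, adjusted p = 0.893), and CANX at 1908 ± 5.13 with ATRA and 1869.6 ± 21.5 with DMSO (0.03, adjusted p = 0.896; SD, n = 3). Both differed by far less than XBP1, whose interval on the log2 scale was 0.34 to 0.74. SERP1, a translocon protein, differed by 0.11, CRELD2, an ER stress-induced protein, by 0.11 and the ER oxidase ERO1B by 0.09, each with an adjusted p above 0.59. FICD, which modifies BiP with AMP, came closest, at 63.6 ± 5.30 with ATRA and 47.0 ± 1.99 with DMSO (0.43, adjusted p = 0.0673).

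**Figure D4:**
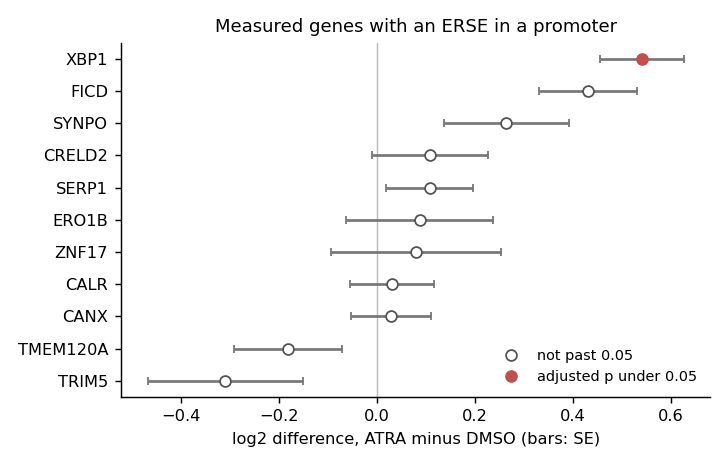
Log2 difference, ATRA minus DMSO, with SE bars for the 11 measured genes with an ERSE in a promoter, in order of size and filled where the adjusted p was under 0.05. XBP1 (0.54) is the filled point, FICD (0.43) is next and CALR and CANX lie at 0.03.

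The related elements gave values of the same small size. HYOU1, a large ER chaperone, has an ERSE-II and was at 1313 ± 34.7 with ATRA and 1225 ± 20.1 with DMSO (0.10, adjusted p = 0.598). SDF2L1, a partner of an ER co-chaperone and the other measured list gene with an ERSE-II, was at 137 ± 1.77 with ATRA and 162 ± 13.1 with DMSO (-0.23, adjusted p = 0.263). Of 9 measured list genes with the XBP1s-binding core TGACGTGG, 0 passed in limma, with a median of 0.05 and a range of -0.32 to 0.43.

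IRE1 also cuts other mRNAs at the ER membrane, a decay known largely from work in mouse and fly cells. Of 13 such substrates listed, 5 were measured, with 0 past the threshold in limma and in the ordinary two-sample test. An unadjusted p under 0.05 was held by 1, and the share of all genes under it is not given here. GALNT2, a Golgi glycosyltransferase, was at 775 ± 45.7 with ATRA and 609 ± 20.9 with DMSO (0.35, adjusted p = 0.0982), and with the mean of its probe sets it differed by 0.09 (adjusted p = 0.808). HGSNAT, a lysosomal acetyltransferase, was at 294 ± 11.8 with ATRA and 331 ± 20.7 with DMSO (-0.17, adjusted p = 0.402). The best known substrate, BLOC1S1, was not analysed here.

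The sensors of the other branches of the unfolded protein response did not pass. ATF6, a transcription factor released from the ER membrane by cleavage, was at 1177, 1249 and 1249 with ATRA, against 1414, 1376 and 1461 with DMSO (-0.21, adjusted p = 0.257). Its groups did not overlap, with ATRA lower, and with eBayes with trend and robust it passed (adjusted p = 0.00588). EIF2AK3, the kinase PERK, was at 381 ± 34.7 with ATRA and 405 ± 29.3 with DMSO (-0.09, adjusted p = 0.732), and its groups overlapped. In the ATF6 and CREB3 list, 1 of 10 measured genes rose and 0 fell (median 0.01), against 1.73% and 2.07% of all genes. The gene that rose was CREB3L2, which encodes an ER-anchored factor. It was at 295, 303 and 324 with ATRA, against 204, 235 and 206 with DMSO, a log2 change of 0.52 (SE 0.099, adjusted p = 0.0358). It no longer passed in any of the 6 leave-one-out fits (largest adjusted p 0.124). Its relatives CREB3 and CREB3L3 differed by -0.36 (adjusted p = 0.159) and 0.46 (adjusted p = 0.356), the second by 0.24 without DMSO replicate 2 or with a pseudocount of 16.

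In the PERK and integrated stress list, 2 of 13 measured genes rose and 0 fell (median 0.10), against 1.73% of all genes that rose and 2.07% that fell. They were DDIT4 (2.71, adjusted p = 5.07e-05) and SESN2 (0.67, adjusted p = 0.0145), both inhibitors of mTORC1, and SESN2 no longer passed in 4 of the 6 leave-one-out fits (largest adjusted p 0.0632). ATF4, the transcription factor of this branch, was at 625 ± 27.6 with ATRA and 521 ± 25.6 with DMSO (0.26, adjusted p = 0.188). DDIT3, the ER stress factor CHOP, was at 32.3 ± 5.04 with ATRA and 22.8 ± 1.62 with DMSO (0.50, adjusted p = 0.0979; 0.31 with a pseudocount of 16), and ATF5, another factor of the branch, differed by -0.45 (adjusted p = 0.166).

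XBP1 also belongs to the plasma cell programme, and the list around it was split. Of 15 measured genes of 22 listed, 3 rose and 0 fell, with a median of -0.05, against 1.73% of all genes that rose and 2.07% that fell. CD38, an ectoenzyme of the plasma cell surface, rose by 1.95 (adjusted p = 0.000145), SDC1, or CD138, by 0.84 (adjusted p = 0.00274) and CREB3L2 by 0.52. IRF4, the factor that acts upstream of XBP1 in plasma cell development, was at 1687 ± 117 with ATRA and 1901 ± 13.4 with DMSO (-0.17, adjusted p = 0.383). SLAMF7, a surface receptor, was at 1025 ± 47.5 with ATRA and 1272 ± 32.0 with DMSO (-0.31, adjusted p = 0.112). BCL6, a repressor of plasma cell fate, was near the array medians, at 6.87 ± 1.79 with ATRA and 9.96 ± 1.47 with DMSO (-0.56, adjusted p = 0.203; -0.18 with a pseudocount of 16). PRDM1 and BHLHA15 were not analysed here.

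Genes of the retinoid list were read in the same fit. The list was written with earlier results of these data known, so it is no independent check that cells had received ATRA. CYP26A1, RARB and TGM2 were among its genes not analysed here. Of 6 measured genes of 16 listed, 3 rose and 0 fell, against 1.73% and 2.07% of all genes. They were CD38, the retinoid-induced phospholipase gene PLAAT4 (1.84, adjusted p = 0.000751) and the corepressor gene NRIP1 (0.81, adjusted p = 0.0190), which no longer passed in 4 of the 6 leave-one-out fits (largest adjusted p 0.0776). NRIP1 has several probe sets, and with their mean its difference was 0.38 (adjusted p = 0.171). CRABP2 and DHRS3, which encode a retinoic acid-binding protein and a retinaldehyde reductase, were dim, at 7.96 ± 0.792 and 12.7 ± 2.60 with ATRA and 8.51 ± 1.06 and 13.0 ± 0.775 with DMSO. Their differences were -0.09 (adjusted p = 0.762) and -0.06 (adjusted p = 0.886), and both turned positive with 1 array left out, CRABP2 without DMSO replicate 1 (0.0063) and DHRS3 without ATRA replicate 3 (0.12).

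The genes whose pattern over the 6 arrays was most like that of each member were found by the root mean square difference of log2 values centred on each gene's mean, among 6850 other protein-coding genes at or above the median level. For ERN1 they were NUP210 (0.032), a nuclear pore glycoprotein, MYO6 (0.035), an actin motor, CPEB4 (0.036), an mRNA-binding regulator of polyadenylation, HSBP1 (0.048), which binds heat shock factor, and SRI (0.052), the calcium-binding protein sorcin. Their log2 changes, which the choice of nearest genes sets close to the 1.00 of ERN1, lay between 0.95 and 1.04. For XBP1 they were ZNF226 (0.018), a zinc finger gene, ATXN1L (0.044), a relative of ataxin 1, TNIP1 (0.046), which restrains NF-kappaB signalling, ADGRG1 (0.048), an adhesion receptor, and SP100 (0.051), a nuclear body protein, with changes between 0.53 and 0.59, likewise set by the choice. These genes are named as a description, and their own calls are not counted. XBP1 stood at rank 134 in the order for ERN1, and ERN1 at rank 1148 in the order for XBP1, with 0.23 between them.

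**Figure D5:**
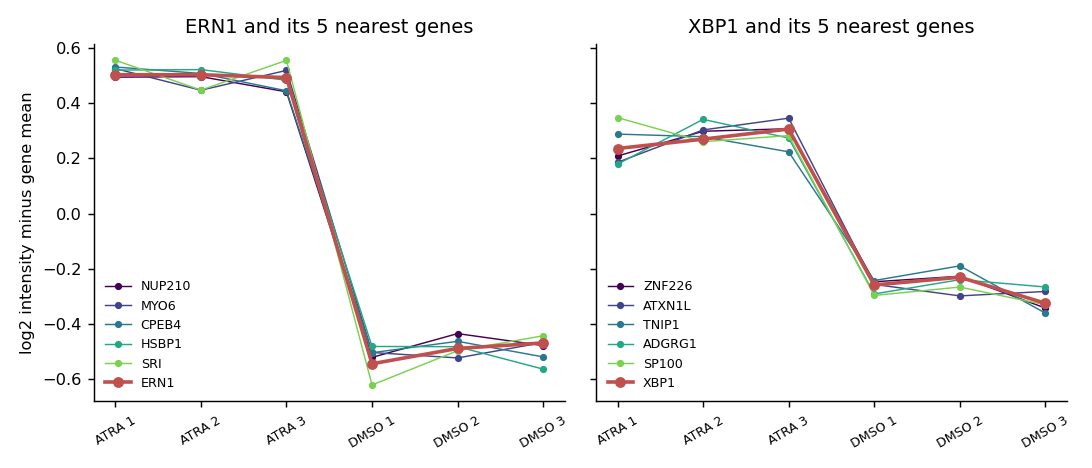
Log2 intensity minus each gene's mean over the 6 arrays (vertical axis) on each array (horizontal axis, ATRA then DMSO), for ERN1 or XBP1 (thick line) and the 5 genes with the most similar pattern (thin lines). The step between groups is 1.00 for ERN1 and 0.54 for XBP1, and the thin lines follow it.

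Over all 10 lists, 112 genes were measured, of which 9 rose (8.04%, against 1.73% of all genes) and 0 fell in limma (against 2.07%). The list genes were brighter than genes at large. With DMSO, 23 of the 112 had a log2 level under 5, while the median level over all genes was 4.19. Calls also depended on level, with 1143 over all genes once the dimmer 50% were left out. Shares at like intensity were not tested. Among the 112, 30 had an unadjusted p under 0.05 in either direction. How many of all genes did so is not given here, so the count says nothing of enrichment. The ordinary two-sample test was passed by 6 of the 112 and by 405 of all 14884 genes.

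The arrays as a whole were alike. Across the 14884 genes, which are not independent of each other, log2 values had correlations of 0.985 to 0.987 between groups and of 0.990 to 0.992 within them. Of 10 plasma cell markers 7 were measured, among them SDC1, CD38, IRF4, MZB1 and SLAMF7 at high intensity, while POU2AF1 and FCRL5 were dim. Their summed intensity was 7340 to 7629 with ATRA and 5947 to 6201 with DMSO, with CD38 and SDC1 as the 2 that rose. Of 43 markers of other cell types (B, T and NK, myeloid, erythroid, stromal and epithelial) 24 were measured and 0 passed in limma. Their summed intensities were 466 to 510.5 with ATRA and 447 to 564 with DMSO. The 4 measured epithelial markers alone summed to 184 to 210 with ATRA and 189 to 275 with DMSO. KRT18, 1 of these 4, was the brightest of the 24, at a mean log2 level of 7.15.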

How the data were processed

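Total RNA of 6 MM.1S samples was labelled with biotin by a whole-transcript kit and hybridised to 1-colour arrays, per the labels. The authors deposited linear intensities for 53617 probe sets on each array. RMA and limma appear in the submitters' processing notes without version or role, and other steps are not given in the sources used here. If that processing compressed low values, the folds of dim genes are understated. No pair of arrays was identical.

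Values were turned to log2 with no pseudocount. Exactly 1 symbol was annotated for 16098 probe sets (30.0%), 0 had several and 37519 are unnamed here. Each of the 16098 had its Entrez ID in RefSeq's table of GRCh38.p14. For the 779 symbols with several probe sets, the probe set with the highest mean over the 6 arrays was used, which left 14884 genes. ERN1 and XBP1 have 1 probe set each, and no other probe set held exactly the same 6 values as either.

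ATRA was compared with DMSO with limma 3.58.1 under R 4.3.3 (lmFit, eBayes, no block, two-sided), and p-values were adjusted by Benjamini-Hochberg across the 14884 genes, with 0.05 as threshold. SDs are over 3 arrays, and folds are ratios of geometric means. The ERN1 and XBP1 changes were compared by an exact permutation test. The number of arrays limits the precision. Alternatives were a fit blocked on replicate number, leave-one-out fits, filters on dim genes, other normalizations, a pseudocount, other variance models, other handling of probe sets and an ordinary two-sample test. The members, gene lists and tests were chosen with earlier results of these data known, so they are no independent support, and lists are described by counts and medians. Named were, for each of 10 lists, up to 4 genes past the threshold with the largest change and the 2 largest differences among the rest, a fixed set of regulators, and the 5 genes nearest to each member. Genes picked by promoter motif fall outside this rule and were chosen after their values were seen. Promoter sequences were read from RefSeq, and both members matched. In simulated data for the same comparison with 14884 genes, 22.4% of 67 genes changed by 0.5 were recovered, 71.6% of 67 changed by 1 and 95.5% of 66 changed by 2, with 3 false calls of 129.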

Additional observations from a re-analysis of the deposited data

How the results depend on the processing

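The change of ERN1 kept its direction and its call under all 19 alternatives, at 0.97 to 1.05 on the log2 scale. XBP1 kept its direction under all 19 and lost its call in 7 of them. These were the 6 fits with 1 array left out, at 0.52 to 0.56, and the fit with the replicate number as a block, at 0.54 (adjusted p = 0.0808). Each of these fits has fewer degrees of freedom. Deviations of arrays with the same replicate number correlated at 0.017, 0.0087 and 0.016, and those of arrays with different numbers at -0.0137 to -0.0027. Each array thus correlated best with its own number, though weakly. Whether arrays of the same number share a batch was not tested. The difference between the ERN1 and XBP1 changes was 0.43 to 0.50 with 1 array left out and 0.46 with the block. Calls over all genes, 565 in the reported fit, numbered 207 to 317 with 1 array left out, 200 with the block, 1143 without the dimmer 50% of genes, 1327 with eBayes with trend and robust and 1218 with a pseudocount of 16. Of 112 measured genes in the lists, 9 rose and 0 fell. With 1 array left out 5 to 6 rose. With eBayes with trend and robust 17 rose and 7 fell, with a pseudocount of 16 these were 15 and 5, and 4 fell without the dimmer 50% of genes, 1 without the dimmer 25% and 1 among protein-coding genes alone. The cause of these shifts was not tested. Of 851 values of the 45 other named genes, 59 lost a call, 32 gained one and 2 turned sign, those of CRABP2 (-0.17 to 0.0063 with 1 array left out) and DHRS3 (-0.16 to 0.12). Among these 45 genes, eBayes with trend and robust added upward calls for ATF4, BAK1, GALNT2, MZB1 and PREB. It added downward calls for ATF5, ATF6, BAX, CREB3, IRF4, RTCB and SLAMF7. Small changes of dim genes such as KDELR3 may be missed with 3 arrays a group. In simulation, recovery at a log2 change of 0.5 was 22.4% over genes of all levels, and recovery among dim genes alone was not tested. The simulation made 129 calls, against 565 in the reported fit, so its recovery may differ from that in these data.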
